A study of Homo sapiens with 38 samples.

Results

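Core pluripotency genes are here the 8 rows of the deposited table named POU5F1, NANOG, ZFP42, DPPA2, DPPA4, PRDM14, UTF1 and L1TD1, out of 58219 genes. They were chosen by name, and the questions were how fast each was lost when H9 cells left the stem cell state and how the remainder at day 4 and day 8 depended on the dose of CT. H9 is an established human embryonic stem cell line, used here as wild type. RNA with poly(A) tails was sequenced from 38 libraries, 2 in each of 19 groups. On day 4 and on day 8 the conditions were CT at 4.0 µM with retinoic acid (RA) at 1.0 µM, the inhibitor of WNT secretion IWP2 at 2.0 µM, CT alone at 0.4, 0.8, 1.0, 2.0, 3.0 and 4.0 µM, and untreated cells without CT. Undifferentiated cells on day 0 were the last group. CT, the WNT activator of the series, is left unexpanded in the labels. All groups came from this single line, and the labels do not say whether the 2 libraries of a group came from separate differentiations, so that p-values measure only the spread between those libraries.

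POU5F1 (also called OCT4), NANOG and PRDM14 encode DNA-binding factors that keep embryonic stem cells undifferentiated. POU5F1 binds DNA together with SOX2 at a joint site made of an octamer part and a SOX part. ZFP42 (REX1) and UTF1 are classical markers of undifferentiated cells, DPPA2 and DPPA4 are partner proteins that bind chromatin, and L1TD1 is an RNA-binding protein derived from a LINE-1 retrotransposon. When stem cells are turned into neural tissue these genes are shut off, while SOX2 and LIN28A, which neural progenitors also use, can remain on.

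The 250 bases before the RefSeq start (GRCh38.p14) are shown for NANOG, a factor that was near 0 after day 0. They are also shown for L1TD1, which followed the CT dose in a U shape, and for DPPA4 and DPPA2. The last are neighbours of the same family that were left at unlike levels. Windows of 6 of the 8 genes were used, as POU5F1 had no entry and the window of PRDM14 is not reported here. Capitals mark ATGCAA, part of the octamer, and CATTGT, a SOX-type motif, searched on both strands (TTGCAT and ACAATG on the other strand). They were read 5′ to 3′ on the strand of the gene at chr12:7789152-7789401 (NANOG, plus), chr3:109337547-109337796 (DPPA4, minus), chr3:109316518-109316767 (DPPA2, minus) and chr1:62194599-62194848 (L1TD1, plus).
NANOG: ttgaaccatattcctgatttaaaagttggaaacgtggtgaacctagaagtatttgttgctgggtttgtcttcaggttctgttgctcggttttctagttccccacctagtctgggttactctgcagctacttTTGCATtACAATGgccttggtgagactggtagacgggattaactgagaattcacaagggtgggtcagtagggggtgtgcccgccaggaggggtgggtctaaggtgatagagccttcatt
DPPA4: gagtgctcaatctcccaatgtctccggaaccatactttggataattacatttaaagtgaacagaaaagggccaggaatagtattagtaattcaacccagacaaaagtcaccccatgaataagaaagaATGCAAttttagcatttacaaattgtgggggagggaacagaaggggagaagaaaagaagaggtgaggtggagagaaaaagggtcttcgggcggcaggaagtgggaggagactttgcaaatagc
DPPA2: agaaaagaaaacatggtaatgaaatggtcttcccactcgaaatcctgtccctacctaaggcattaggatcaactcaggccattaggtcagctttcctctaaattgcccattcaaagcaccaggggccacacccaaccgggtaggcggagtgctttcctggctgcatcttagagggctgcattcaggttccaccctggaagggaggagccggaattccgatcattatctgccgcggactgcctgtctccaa
L1TD1: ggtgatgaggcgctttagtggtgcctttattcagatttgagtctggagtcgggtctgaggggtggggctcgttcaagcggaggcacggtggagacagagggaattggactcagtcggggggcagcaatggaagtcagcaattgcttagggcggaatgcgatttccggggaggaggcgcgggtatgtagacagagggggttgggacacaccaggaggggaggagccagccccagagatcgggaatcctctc

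NANOG held 1 match to each motif, at 119 to 114 and at 112 to 107 bases before the start. The matches are 1 base apart and form the joint arrangement CATTGTNATGCAA on the opposite strand. DPPA4 held ATGCAA at 123 to 118 bases before the start. The windows of ZFP42, DPPA2, UTF1 and L1TD1 held neither motif. Among all 35116 promoters of this length, 8.86% held ATGCAA, 9.29% held CATTGT and 0.00854%, or 3 promoters, held the joint arrangement. The windows also differed in CpG number, with 32 in UTF1, 23 in ZFP42, 12 in L1TD1, 7 in DPPA2, 4 in NANOG and 3 in DPPA4, against a median of 11 over all promoters. These matches describe the letters of the windows and were not tested as binding sites.

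In hg38, POU5F1 (ENSG00000204531.17) lies on chromosome 6 at 31164337 to 31180731 on the minus strand, and the plus strand of chromosome 12 carries NANOG (ENSG00000111704.10, 7787794 to 7799141). The plus strand of chromosome 4 carries ZFP42 (ENSG00000179059.9, 187995771 to 188005050). DPPA2 (ENSG00000163530.4, 109293788 to 109316517) and DPPA4 (ENSG00000121570.12, 109326141 to 109337572) are both on the minus strand of chromosome 3. PRDM14 (ENSG00000147596.3) lies on chromosome 8 at 70051651 to 70071693 on the minus strand. Both UTF1 (ENSG00000171794.3, chromosome 10, 133230274 to 133231558) and L1TD1 (ENSG00000240563.1, chromosome 1, 62194831 to 62212328) lie on plus strands.

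Levels are TPM (transcript abundance relative to all transcripts of a library, corrected for length), so they can be compared between genes. Changes are log2 changes of TPM + 1 with their standard error (SE), and each adjusted p comes from limma, by the Benjamini-Hochberg method over the 28221 genes tested. A change was called where the adjusted p was under 0.05 and the size was at least 1. TPM keeps no depth, so the number of reads behind a value is unknown. Because the total is fixed, a class of genes that takes more RNA lowers all others: ribosomal protein genes held 16.3% to 37.2% of TPM per library and were highest in D8 CT4.0RA. In these bulk samples fewer cells with a transcript and less transcript per cell cannot be told apart. Of the 38 libraries, 33 had their closest match in the other library of the same group.

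All 8 genes were lower on day 4 than in stem cells in each of the 9 conditions, and the share of the starting level that was left ranged up to 33.2%, for DPPA4 with IWP2. In untreated cells 8 of 8 were called lower, with a median log2 change of -3.55, against 0.05 over all genes tested and 9.24% of all genes called lower. NANOG and UTF1 passed the filter on low values only through the 2 stem cell libraries and had to differ, so the count of 8 supports nothing by itself. At CT4.0 on day 4 the count was also 8 of 8, where 9.45% of all genes were called lower. The plot of the 8 genes over the 3 days shows each library.

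**Figure D1:**
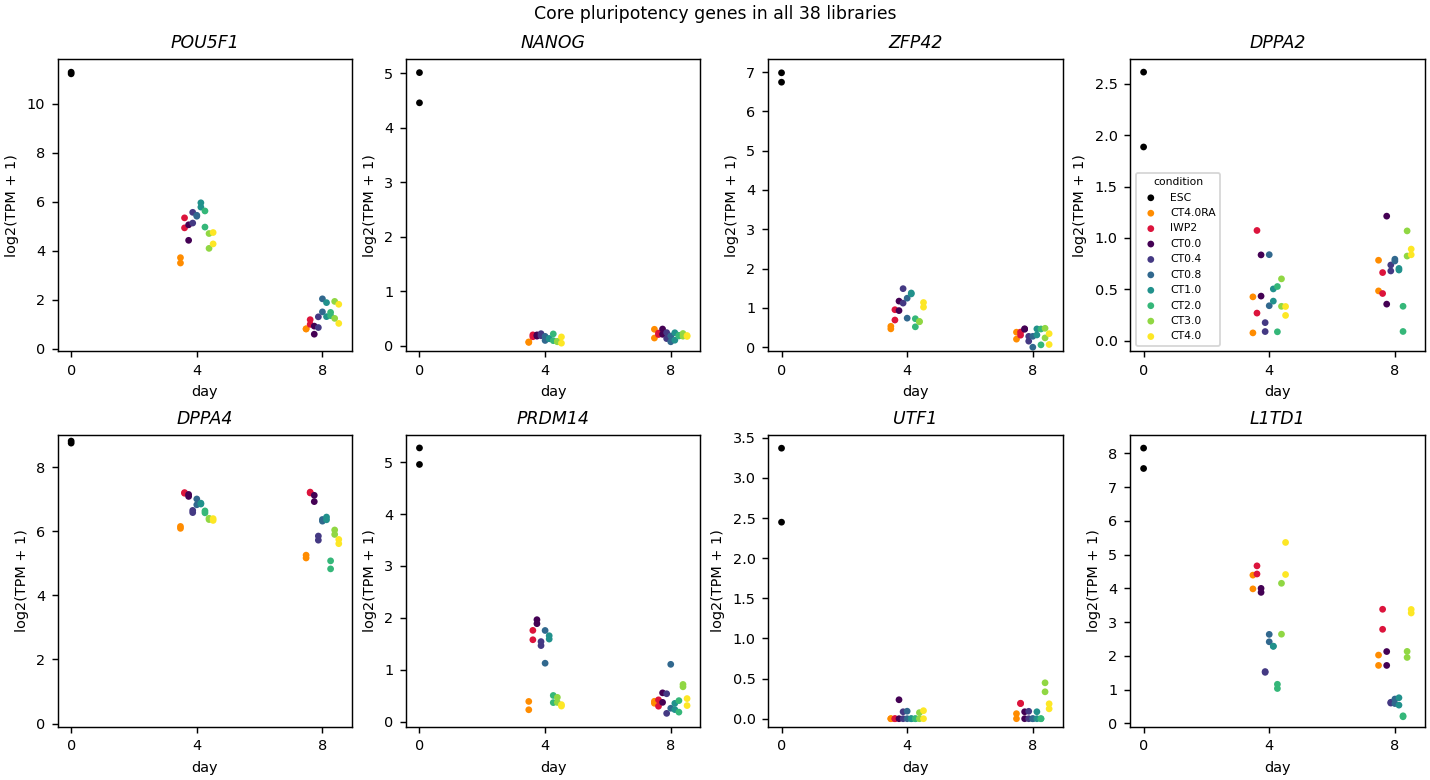
Each point is 1 library, with log2(TPM + 1) on the vertical axis and the day on the horizontal axis, spread by condition and coloured by it (CT0.0 is untreated). Every day 4 and day 8 library lies below both day 0 libraries of its gene, and DPPA4 is the gene that stays at 27.3 TPM or above in all of them.

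POU5F1 was the most abundant of the 8 genes in stem cells. It read 20.5 and 32.4 TPM in untreated cells on day 4, against 2514 and 2399 TPM in stem cells (-6.52 ± 0.31, adjusted p = 1.1e-13). The groups were far apart, and 1.08% of the stem cell level remained. Even so, every day 4 library held at least 10.3 TPM of POU5F1, with a median of 31.4 and a highest value of 61.3 TPM over the 18 libraries. NANOG stood at 0.129 and 0.147 TPM in untreated cells on day 4, against 20.9 and 31.2 TPM in stem cells (-4.54 ± 0.15, adjusted p = 2.4e-16). No library of day 4 or day 8 reached 0.24 TPM of NANOG, and 0.176% to 0.575% of its stem cell level remained over the 9 conditions of day 4. NANOG shares sequence with the copies NANOGP8 and NANOGP1, listed at 9.34 and 4.93 TPM in stem cells, so its own level there is uncertain. The POU5F1 copies were under 1 TPM on average in stem cells and in every library of day 4 and day 8.

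ZFP42, the zinc finger gene, read 1.25 and 0.907 TPM in untreated cells on day 4, against 106 and 125 TPM in stem cells (-5.81 ± 0.20, adjusted p = 4.7e-16). Between 0.358% and 1.37% of it remained over the conditions of day 4. PRDM14 was left at 2.70 and 2.90 TPM in untreated cells, against 30.1 and 37.7 TPM in stem cells (-3.19 ± 0.23, adjusted p = 1.2e-10). UTF1 was listed at 0 and 0.178 TPM in untreated cells on day 4, against 9.35 and 4.46 TPM in stem cells (-2.79 ± 0.19, adjusted p = 4.1e-11). It was listed at 0 in 13 of the 18 day 4 libraries and in 8 of the 18 day 8 libraries. For ZFP42 and PRDM14 the groups did not overlap, which weighs little with 2 libraries in each. UTF1 had to differ, as said above.

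The neighbours DPPA2 and DPPA4 were left at unlike levels, as they had been unlike in stem cells. DPPA2 stood at 0.352 and 0.785 TPM in untreated cells on day 4, against 5.12 and 2.69 TPM in stem cells (-1.61 ± 0.29, adjusted p = 8.7e-05), and had the lowest level of the 8 genes in stem cells. DPPA4 stood at 135 and 141 TPM in untreated cells, against 429 and 449 TPM in stem cells (-1.66 ± 0.08, adjusted p = 1.4e-13). That left 31.4% of DPPA4, beside 14.6% of DPPA2. Over the conditions of day 4 between 15.6% and 33.2% of DPPA4 and between 2.5% and 16.8% of DPPA2 remained. On day 8 the shares overlapped, at 6.84% to 33.4% for DPPA4 and 4.2% to 23.9% for DPPA2. On both days DPPA4 had the highest level of the 8 genes in every condition. L1TD1 was intermediate. It read 13.8 and 15.01 TPM in untreated cells on day 4, against 187 and 285 TPM in stem cells (-3.92 ± 0.34, adjusted p = 2.7e-09), which left 6.09%.

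Between day 4 and day 8 POU5F1 fell again in all 9 conditions, and it was the only one of the 8 genes called lower in every one. In untreated cells it stood at 0.895 and 0.508 TPM on day 8, against 20.5 and 32.4 TPM on day 4 (-3.99 ± 0.31, adjusted p = 4.3e-09). Its change ranged from -4.28 ± 0.31 at CT1.0 to -2.80 ± 0.31 at CT4.0RA, and the ratio of the day 4 mean to the day 8 mean from 37.7 in untreated cells to 9.87 at CT3.0. On day 8 POU5F1 was at or above 1 TPM in 12 of 18 libraries, with a highest value of 3.10 TPM. In untreated cells 3 of the 8 genes were called lower on day 8 than on day 4, where 1.67% of all genes were called lower. The share of all genes called lower in this interval was 1.92% with IWP2, 1.96% at CT4.0RA, and 1.78%, 1.72%, 1.17%, 1.06%, 4.31% and 3.81% from CT0.4 to CT4.0.

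PRDM14 was also called lower in untreated cells, at 0.467 and 0.292 TPM on day 8, against 2.70 and 2.90 TPM on day 4 (-1.46 ± 0.23, adjusted p = 6.5e-05). It was called as well with IWP2 (-1.31 ± 0.23), at CT1.0 (-1.33 ± 0.23) and at CT0.4 (-1.16 ± 0.23, lost without replicate 2 of D8 CT0.4), conditions in which it had been above 1 TPM on day 4. At CT0.8, where it had been above 1 TPM as well, its change was -0.76 ± 0.23 and was not called, but was called without replicate 1 of D4 CT0.8 or replicate 2 of D8 CT0.8 (-1.18 to -0.34 with 1 library left out). L1TD1 stood at 3.37 and 2.29 TPM in untreated cells on day 8, against 13.8 and 15.01 TPM on day 4 (-2.02 ± 0.34, adjusted p = 1.5e-04). It was called in 7 of the 9 conditions, CT0.4 (-0.91 ± 0.34) and CT2.0 (-0.89 ± 0.34) being those where it was not. Both were called with a pseudocount of 0.1 (-1.65 and -2.27) and without ribosomal protein and mitochondrial genes in the total (-1.16 and -1.14). The ratio of the day 4 mean of L1TD1 to its day 8 mean was 3.55 at CT0.4 and 7.28 at CT2.0, beside 5.08 in untreated cells. In 3 conditions the call of L1TD1 rested on 1 library and was lost without replicate 1 of D8 IWP2, without replicate 2 of D4 CT3.0 or without replicate 2 of D4 CT4.0.

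DPPA4 in untreated cells read 120.4 and 138 TPM on day 8, against 135 and 141 TPM on day 4, and the libraries overlapped (-0.09 ± 0.08, 95% interval -0.26 to 0.07). With IWP2 its change was 0.01 ± 0.08. At CT2.0 it was called lower, with 27.3 and 32.7 TPM on day 8 against 94.2 and 98.3 TPM on day 4 (-1.65 ± 0.08, adjusted p = 3.8e-12). In the other 6 conditions its change lay between -0.91 and -0.41, with an adjusted p under 0.05 but below the size for a call. Scaling by trimmed mean of M values gave calls of DPPA4 at CT0.4 (-1.20) and CT4.0RA (-1.01). CT0.4 was also called without ribosomal protein and mitochondrial genes in the total (-1.02). ZFP42 was called at CT0.4 alone, a call that was lost without replicate 2 of D4 CT0.4. Its changes in untreated cells (-0.59) and at CT0.8 (-0.85), CT1.0 (-0.98) and CT4.0 (-0.87) had an adjusted p under 0.05 but were below that size. At CT0.8, CT1.0 and CT4.0 ZFP42 was called with a pseudocount of 0.1 (-2.59, -2.05 and -2.37). It was also called there without ribosomal protein and mitochondrial genes in the total (-1.10, -1.26 and -1.08). NANOG, DPPA2 and UTF1 were called in no condition between day 4 and day 8, having been near 0 on day 4. With a pseudocount of 0.1 UTF1 was called higher on day 8 at CT3.0 (1.72), at levels under 1 TPM.

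**Figure D2:**
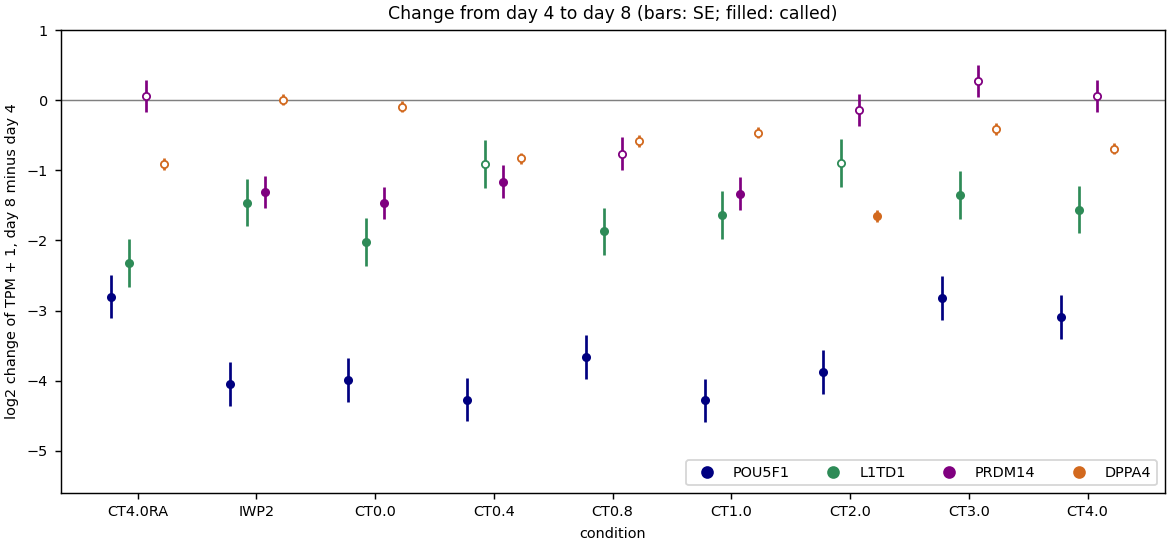
The log2 change of TPM + 1 from day 4 to day 8 is plotted for each condition (CT0.0 is untreated), bars are the SE and filled points are called. POU5F1 lies between -4.28 and -2.80 in all conditions, and DPPA4 is near 0 with IWP2 and in untreated cells and reaches -1.65 at CT2.0.

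Whether the loss slowed was tested in untreated cells as the change from day 4 to day 8 less the change from day 0 to day 4. NANOG, ZFP42 and DPPA2 averaged 0.138, 1.08 and 0.568 TPM on day 4, UTF1 was listed at 0 and 0.178 TPM, and all 4 could hardly fall further on this scale, so their positive differences were set in advance and are not read. POU5F1, PRDM14 and L1TD1 averaged 26.5, 2.80 and 14.4 TPM on day 4. On this scale POU5F1 and PRDM14 could not fall again by as much as before. L1TD1 could do so only if almost nothing was left. Their positive differences were thus also set in advance, or nearly so for L1TD1, and only that of DPPA4 is read. For POU5F1, PRDM14, L1TD1 and DPPA4 the difference was positive and called, where 11.1% of all genes were called higher. It was 1.57 ± 0.14 for DPPA4 (adjusted p = 1.3e-08), 2.53 ± 0.53 for POU5F1 (adjusted p = 8.8e-04), 1.73 ± 0.39 for PRDM14 (adjusted p = 0.00175) and 1.90 ± 0.58 for L1TD1 (adjusted p = 0.0169). With a pseudocount of 0.1 in place of 1 it was no longer called for POU5F1 (1.51, adjusted p = 0.126), PRDM14 (0.92, adjusted p = 0.537) or L1TD1 (1.67, adjusted p = 0.070). For L1TD1 it was also lost without replicate 2 of the stem cells, either D4 untreated library or replicate 1 of D8 untreated.

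The remainder on day 4 differed among the 9 conditions by the F test for POU5F1 (adjusted p = 5.7e-05), DPPA4 (adjusted p = 5.9e-10), L1TD1 (adjusted p = 4.5e-09), PRDM14 (adjusted p = 5.9e-07) and ZFP42 (adjusted p = 0.00546), 5 of the 8 genes against 46.4% of all genes. On day 8 it differed for DPPA4 (adjusted p = 9.9e-16), L1TD1 (adjusted p = 5.2e-08) and POU5F1 (adjusted p = 0.0494), 3 of the 8 genes against 57.9% of all genes. Against untreated cells, 2.23%, 2.68%, 5.22%, 5.96%, 7.35% and 8.30% of all genes were called from CT0.4 to CT4.0 on day 4, and 6.03%, 4.54%, 4.59%, 6.41%, 16.2% and 15.8% on day 8, against which the calls of the 8 genes are to be read. The dose patterns of the 4 genes with larger remainders were unlike each other, as the plot by condition shows.

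**Figure D3:**
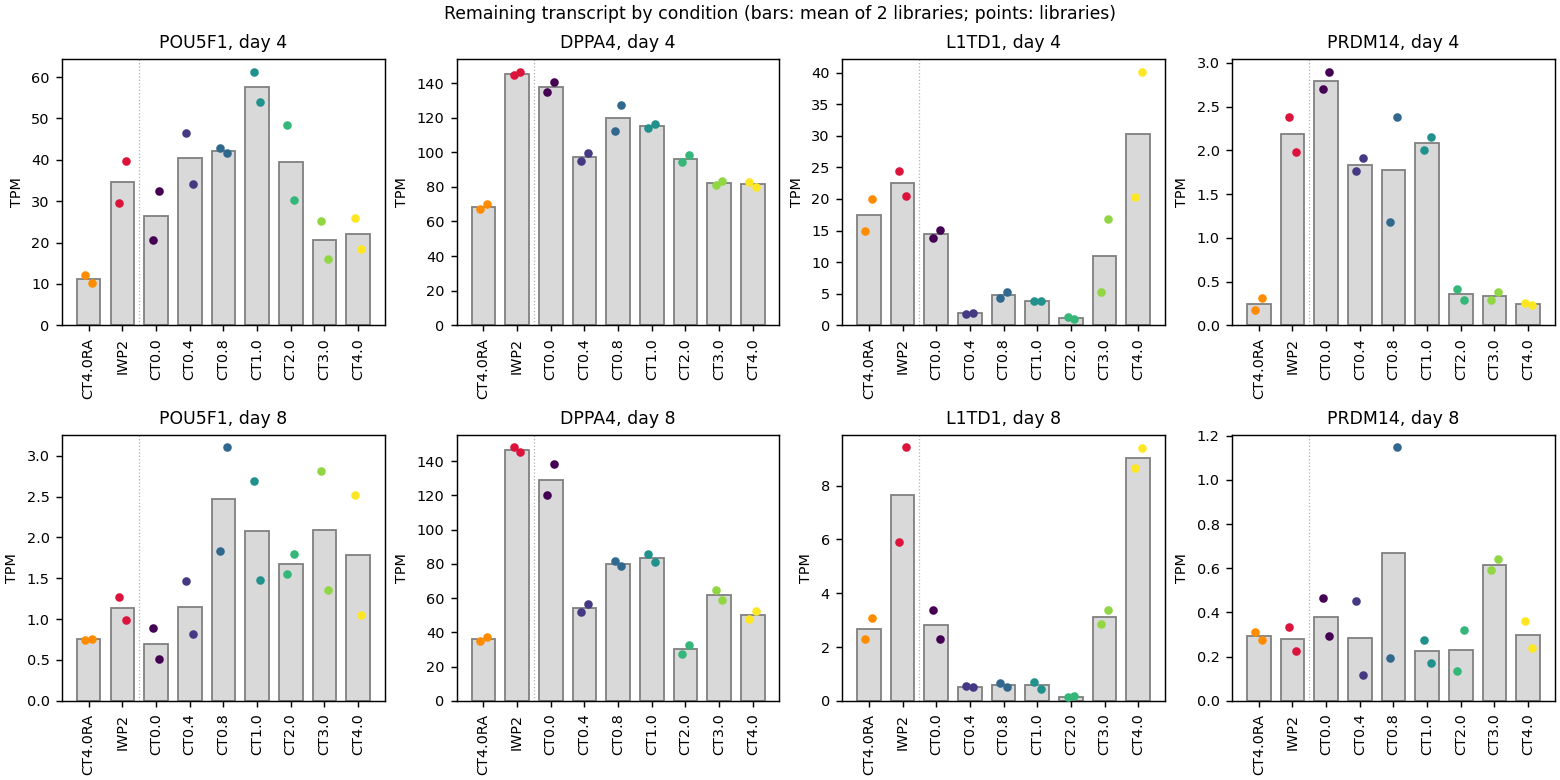
TPM on day 4 (upper row) and day 8 (lower row) by condition, with points for libraries and bars for their mean, each panel on its own scale (CT0.0 is untreated). POU5F1 on day 4 is highest at CT1.0, DPPA4 on day 8 lowest at CT2.0, L1TD1 low from CT0.4 to CT2.0 and high at CT4.0, and PRDM14 on day 4 low from CT2.0 upward.

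POU5F1 on day 4 was higher at middle doses than at either end. From the lowest dose to the highest, its mean was 26.5 TPM without CT, 40.3 with CT0.4, 42.1 with CT0.8, 57.7 with CT1.0, 39.4 with CT2.0, 20.6 with CT3.0 and 22.1 with CT4.0. It read 61.3 and 54.1 TPM at CT1.0, against 20.5 and 32.4 TPM in untreated cells (1.13 ± 0.31, adjusted p = 0.00968). This was the only dose called, it was 1 of 2 calls among the 8 genes where 5.22% of all genes were called, and it was lost without replicate 1 of either group (0.81 without that of D4 untreated and 1.04 without that of D4 CT1.0). In the order of the 9 day 4 conditions, libraries of neighbouring groups overlapped from CT0.8 down to CT3.0, and gaps stood only between CT1.0 and CT0.8 and between CT3.0 and CT4.0RA. The linear slope over the 7 doses was -0.21 ± 0.06 log2 units per µM (adjusted p = 0.00934), below the size of 0.25 that a slope call needed, and was called without replicate 1 of D4 untreated or of D4 CT4.0 (-0.26 to -0.17 with 1 library left out).

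On day 8 POU5F1 was low throughout, at levels that its copies make uncertain. It averaged 2.47 TPM at CT0.8 (1.84 and 3.10), against 0.701 TPM in untreated cells (0.895 and 0.508), a change of 1.01 ± 0.31 (adjusted p = 0.0258). That call was lost without replicate 2 of D8 CT0.8 (0.75) or of D8 untreated (0.85). The other doses averaged 1.14 TPM at CT0.4, 2.08 at CT1.0, 1.67 at CT2.0, 2.09 at CT3.0 and 1.78 at CT4.0, none called, though CT3.0 and CT4.0 were each called without their replicate 2 (1.17 and 1.06). With a pseudocount of 0.1, which counts low values more, POU5F1 was also called higher with CT1.0, CT2.0, CT3.0 and CT4.0 than in untreated cells, with changes of 1.16 to 1.43. Its slope on day 8 was 0.10 ± 0.06 per µM and was not called. The slope on day 8 less that on day 4 was 0.32 ± 0.09 per µM (adjusted p = 0.00588), where 2.01% of all genes were called higher. It fell below the size for a call without replicate 1 of D8 CT4.0 (0.24) and was 0.08 over 0.0 to 2.0 µM. With 0.701 TPM in untreated cells on day 8, a fall as steep as the day 4 slope had no room on this scale. The slope difference of POU5F1 is therefore not read as a result.

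PRDM14 on day 4 fell in a step between CT1.0 and CT2.0. Its means from untreated cells upward were 2.80, 1.83, 1.78 and 2.08 TPM up to CT1.0, and 0.352, 0.336 and 0.242 TPM at CT2.0, CT3.0 and CT4.0. At CT2.0 it read 0.417 and 0.288 TPM, against 2.01 and 2.15 TPM at CT1.0 (-1.19 ± 0.23, adjusted p = 0.00178), where 0.815% of all genes were called lower, and the groups did not overlap. Against untreated cells PRDM14 fell at CT2.0 (-1.49 ± 0.23), CT3.0 (-1.51 ± 0.23) and CT4.0 (-1.61 ± 0.23, adjusted p = 8.9e-06). At CT4.0 it was the only one of the 8 genes called on day 4, where 8.30% of all genes were called, and without replicate 1 of D4 CT4.0 there were 2. Its day 4 slope was -0.43 ± 0.04 per µM (adjusted p = 8.1e-08). On day 8 it was at or above 1 TPM in 1 of 18 libraries, replicate 2 of D8 CT0.8 at 1.15 TPM, and its slope was 0.01 ± 0.04. PRDM14 averaged 0.380 TPM in untreated cells on day 8, so a fall of the size seen on day 4 had no room on this scale. Its slope on day 8 less that on day 4 was 0.44 ± 0.06 (adjusted p = 1.0e-05). The slopes of 2 of the 8 genes, POU5F1 and PRDM14, were called different between the days, where 13.9% of all genes were. The change of PRDM14 at CT4.0 on day 8 less that on day 4 was 1.53 ± 0.32 (adjusted p = 0.00168). In that comparison 1.67% of all genes were called higher. For want of room, neither difference of PRDM14 is read as a result.

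The mean of DPPA4 was below that of untreated cells at every CT dose on both days, with no steady order by dose. On day 4 it averaged 138 TPM without CT, 97.1 with CT0.4, 119.96 with CT0.8, 115 at CT1.0, 96.3 at CT2.0, 82.5 at CT3.0 and 81.4 at CT4.0. The change at CT4.0 was -0.75 ± 0.08 (adjusted p = 1.6e-07), below the size for a call. On day 8 the means were 129 TPM without CT, 54.2 with CT0.4, 80.0 with CT0.8, 83.4 at CT1.0, 30.0 at CT2.0, 61.7 at CT3.0 and 50.2 at CT4.0. Neighbouring groups in this order of levels were apart, except CT0.8 beside CT1.0 and CT0.4 beside CT4.0. DPPA4 fell against untreated cells at CT0.4 (-1.24 ± 0.08), CT2.0 (-2.07 ± 0.08, adjusted p = 1.2e-14), CT3.0 (-1.05 ± 0.08) and CT4.0 (-1.34 ± 0.08). The call at CT3.0 was lost without replicate 2 of D8 CT3.0 or of D8 untreated. Scaling by trimmed mean of M values, which moved the median of all genes by 0.28 at CT3.0 and 0.27 at CT4.0, gave -0.59 and -0.89 there, no longer called. The step from CT1.0 to CT2.0 on day 8 was -1.45 ± 0.08 (adjusted p = 8.7e-11), and DPPA4 was the only one of the 8 genes called in it, where 1.08% of all genes were called lower. Its linear slopes were -0.24 ± 0.02 per µM on day 8 (adjusted p = 1.1e-11) and -0.16 ± 0.02 on day 4 (adjusted p = 1.9e-08), below the size for a call. The day 8 slope was called without replicate 1 of D8 untreated, replicate 1 of D8 CT3.0 or replicate 2 of D8 CT4.0, and was -0.11 with scaling by trimmed mean of M values. The change at CT4.0 on day 8 less that on day 4 was -0.59 ± 0.11 (adjusted p = 6.7e-04), below the size for a call, and -0.31 (adjusted p = 0.109) with that scaling.

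L1TD1 was low at the doses in between and high at both ends, on both days. On day 4 it averaged 14.4 TPM without CT, 1.88 with CT0.4, 4.78 with CT0.8, 3.88 at CT1.0, 1.14 at CT2.0, 11.01 at CT3.0 and 30.2 at CT4.0. It fell against untreated cells at CT0.4 (-2.42 ± 0.34, adjusted p = 4.2e-05), at CT0.8 (-1.41 ± 0.34, lost without replicate 1 of D4 CT0.8 or replicate 2 of D4 untreated), at CT1.0 (-1.66 ± 0.34) and at CT2.0 (-2.85 ± 0.34, adjusted p = 1.3e-06). CT4.0 held 20.3 and 40.2 TPM, against 1.23 and 1.05 TPM at CT2.0 (3.79 ± 0.34, adjusted p = 1.8e-08), where 2.80% of all genes were called higher. CT4.0 against untreated cells gave 0.95 ± 0.34 (adjusted p = 0.0439), below the size for a call. It was 0.47 to 1.42 with 1 library left out, called without replicate 1 of D4 CT4.0, and 1.11 with scaling by trimmed mean of M values, a call. The CT3.0 libraries were far apart, at 5.25 and 16.8 TPM.

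The same shape stood on day 8 at lower levels. L1TD1 averaged 2.83 TPM without CT, 0.529 with CT0.4, 0.575 with CT0.8, 0.573 at CT1.0, 0.156 at CT2.0, 3.13 at CT3.0 and 9.02 at CT4.0. It fell against untreated cells with CT2.0 (-1.71 ± 0.34, adjusted p = 5.9e-04) and with CT0.4, CT0.8 and CT1.0 (-1.31 to -1.27), the last 3 calls being lost without replicate 1 of D8 untreated. It rose at CT4.0, with 8.65 and 9.39 TPM against 3.37 and 2.29 TPM in untreated cells (1.40 ± 0.34, adjusted p = 0.00186), and CT4.0 was also above CT2.0 (3.11 ± 0.34, adjusted p = 1.4e-07), where 4.17% of all genes were called higher. At CT4.0 on day 8, L1TD1 and DPPA4 were the 2 of the 8 genes called, where 15.8% of all genes were called. Linear slopes over all 7 doses were 0.42 ± 0.07 per µM on day 4 and 0.48 ± 0.07 on day 8, both called. With PRDM14 on day 4 that made 2 of the 8 genes with a slope on day 4, where 7.65% of all genes had one, and 1 on day 8, where 20.2% had one. Over 0.0 to 2.0 µM they turned round, to -1.08 and -0.69, both called, so that a single slope does not describe this gene.

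NANOG, ZFP42, DPPA2 and UTF1 were called in no comparison of a dose with untreated cells on either day. In untreated cells NANOG, DPPA2 and UTF1 averaged under 1 TPM on both days, and ZFP42 on day 8. A fall large enough for a call had no room there, so a lack of calls says little about the dose. ZFP42 on day 4 ranged from 0.382 to 1.81 TPM over the 18 libraries and was at or above 1 TPM in 8 of them, and its CT2.0 against CT1.0 change was -0.75 ± 0.20 (adjusted p = 0.0276), below the size for a call. DPPA2 stayed at or below 1.32 TPM in every library after day 0. UTF1 reached 0.364 and 0.262 TPM in the D8 CT3.0 libraries, its highest after day 0. With a pseudocount of 0.1 this rise against untreated cells was called (1.69), as was the day 8 slope of UTF1 (0.33), at levels under 1 TPM.

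**Figure D4:**
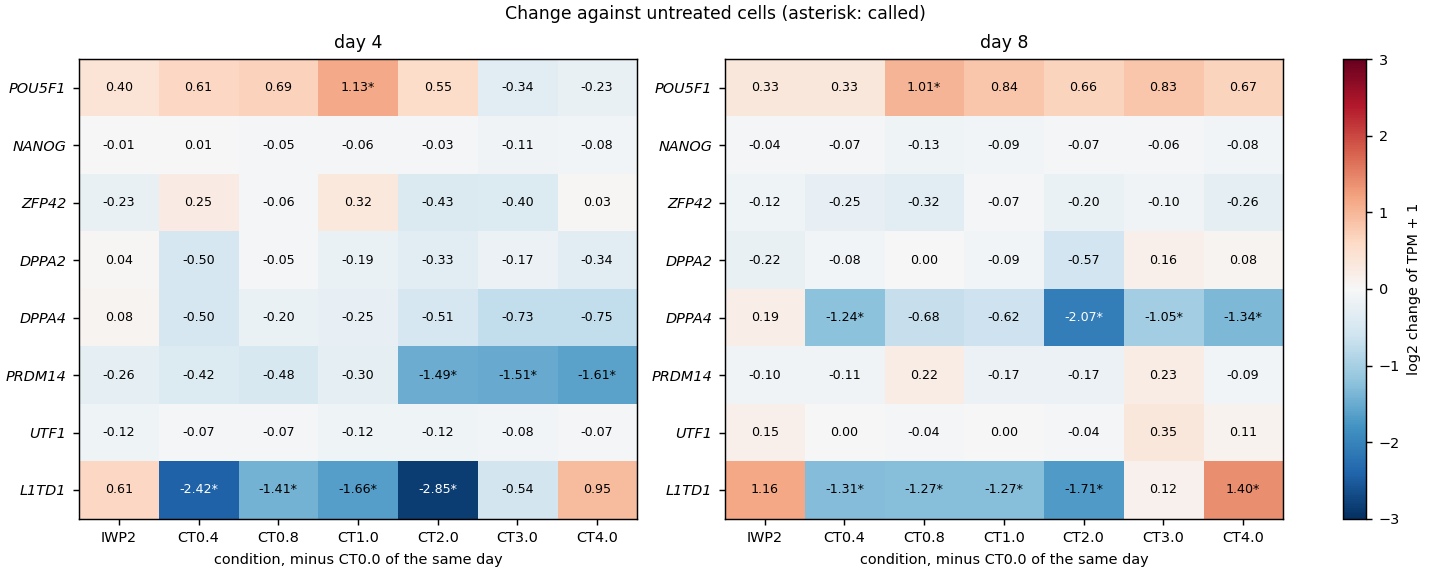
Log2 change of TPM + 1 against untreated cells of the same day (CT0.0), for each of the 8 genes in rows and IWP2 and each CT dose in columns, with an asterisk where called. The calls lie in the rows of POU5F1, DPPA4, PRDM14 and L1TD1, and L1TD1 is blue at low doses and red at CT4.0 on both days.

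RA was added to the highest dose. On day 4 none of the 8 genes was called with limma, where 5.84% of all genes were called, and 4 were lower at an unadjusted p under 0.05. POU5F1 read 12.2 and 10.3 TPM at CT4.0RA, against 25.8 and 18.4 TPM at CT4.0 (-0.90 ± 0.31, adjusted p = 0.0389), its lowest day 4 level of any condition. The change was -1.14 and called without replicate 2 of D4 CT4.0, and -0.59 (adjusted p = 0.272) with scaling by trimmed mean of M values, where ribosomal protein genes held 29.1% of TPM at D4 CT4.0RA and 22.1% at D4 CT4.0. On day 8 L1TD1 fell with RA, to 2.29 and 3.07 TPM at CT4.0RA, against 8.65 and 9.39 TPM at CT4.0 (-1.45 ± 0.34, adjusted p = 0.00203), where 4.33% of all genes were called lower. DPPA4 stood at 34.9 and 37.1 TPM at CT4.0RA, against 47.9 and 52.6 TPM at CT4.0 (-0.47 ± 0.08), below the size for a call. The effects of RA on the 2 days were not called different for any of the 8 genes, where 7.13% of all genes were, with 1 of the 8 at an unadjusted p under 0.05.

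IWP2 blocks WNT secretion and so tests the opposite direction to CT. None of the 8 genes was called against untreated cells with limma on day 4, where 0.283% of all genes were called and 0 of the 8 had an unadjusted p under 0.05. None was called on day 8 either, where 0.425% of all genes were called and 2 of the 8, DPPA4 and L1TD1, were higher at an unadjusted p under 0.05. L1TD1 read 5.91 and 9.42 TPM with IWP2 on day 8, against 3.37 and 2.29 TPM in untreated cells (1.16 ± 0.34, adjusted p = 0.124, interval 0.47 to 1.86). POU5F1 averaged 34.6 TPM with IWP2 on day 4, against 26.5 TPM in untreated cells, with overlapping libraries.

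Other pluripotency genes were compared through a list of 24. On day 4 in untreated cells 15 were lower than in stem cells, 1 was higher and 8 were not called, beside the 9.24% and 7.51% of all genes called lower and higher. Of the 15, 6 (TDGF1, GDF3, LEFTY1, LEFTY2, FOXD3 and CDH1) passed the filter on low values only through the stem cell libraries and had to differ, so the count supports nothing by itself. TDGF1, a NODAL co-receptor, fell furthest (-7.46 ± 0.17, to 0.499 TPM in untreated cells on day 4, against 262 TPM in stem cells), followed by the epithelial cadherin CDH1 (-6.14 ± 0.27) and the NODAL pathway factor FOXH1 (-5.36 ± 0.26). The RNA-binding protein gene LIN28A was not called, at 851 TPM on day 4 against 674 TPM in stem cells (0.34 ± 0.06). When day 4 CT4.0 was set against untreated cells, 3 of the 24 were higher, 3 lower and 18 not called, where 8.30% of all genes were called in either direction. FOXH1 stood at 5.72 TPM at CT4.0, against 0.678 TPM in untreated cells (2.01 ± 0.26), while USP44, a deubiquitinase, and DNMT3B, a DNA methyltransferase, fell (-1.43 ± 0.12 and -1.31 ± 0.11). Of 14 neural progenitor genes, 10 were higher in untreated cells on day 4 than in stem cells, where 7.51% of all genes were called higher. PAX6 stood at 103 TPM in untreated cells on day 4, against 1.36 TPM in stem cells (5.46 ± 0.16). This holds for untreated cells and not for all libraries with the neural label, since PAX6 averaged 1.49 TPM at D4 CT4.0. Of 14 naive pluripotency genes 7 were measured, of which 3 fell and 1 rose on day 4 in untreated cells, beside the same 9.24% and 7.51%, and 1 of the 3, TFCP2L1, passed the filter only through stem cells.

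Markers of other cell types also differed at CT3.0 and CT4.0 on day 4, doses at which PRDM14 was low and L1TD1 was above its CT2.0 level. The summed level of 12 axial progenitor and primitive streak genes was 351 to 438 TPM in D4 CT4.0 libraries and 271 to 362 TPM in D4 CT3.0 libraries, against 2.22 to 2.56 TPM in D4 untreated libraries. At D4 CT4.0, 5 of the 8 measured genes of that list rose against untreated cells, where 3.31% of all genes were called higher, and 3 were not called, with CDX2 and NKX1-2 at 7.19 ± 0.20 and 7.19 ± 0.23 and TBXT at 36.3 TPM in D4 CT4.0, against 0.548 TPM in D4 untreated. At D4 CT2.0 the sum was 1.99 to 3.87 TPM, a dose at which PRDM14 was already low and L1TD1 at its lowest. The sum of 14 neural progenitor genes was 317 to 319 TPM in D4 CT4.0 libraries, against 995 to 1087 TPM in D4 untreated libraries, and 7 of the 14 fell, PAX6 and LHX5 among them, where 4.99% of all genes were called lower. Of 8 germ cell genes, which share POU5F1 and PRDM14 with stem cells, the sum was 18.4 to 20.4 TPM at D4 CT4.0, against 10.3 to 10.9 TPM in D4 untreated libraries, and 7 of the 8 were under 1 TPM at D4 CT4.0. The receptor gene KIT rose, to 16.7 TPM at D4 CT4.0 against 5.09 TPM in D4 untreated, while the germ cell RNA-binding protein gene DAZL fell, to 0.123 TPM at D4 CT4.0 against 4.63 TPM in D4 untreated. The 7 endoderm genes summed to 38.3 to 39.0 TPM at D4 CT4.0, against 4.39 to 5.47 TPM in D4 untreated libraries, nearly all of it CXCR4, and 6 of the 7 were under 1 TPM. The 8 surface ectoderm genes summed to 163 to 199 TPM at D4 CT4.0, against 128 to 133 TPM in D4 untreated libraries, with the keratin gene KRT18 higher (1.51 ± 0.20) and KRT19 lower (-1.05 ± 0.25). The part of these cell types in the levels of the 8 genes was not tested.

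Among 11182 named protein-coding genes, those whose 18 day 4 and day 8 group means followed POU5F1 most closely included PCYT1B (Pearson r = 0.967), RAD1 (0.886), EIF3K (0.882) and CNMD (0.881). Over all 19 groups the genes that followed the mean of the 8 genes, each standardized, most closely included CNMD (0.981), KDF1 (0.978), MT1H (0.971) and TMEM125 (0.969). These correlations describe group means that hold both days and share libraries. Those over 19 groups rest largely on the single stem cell group, in which all 8 genes were far higher. They therefore say little about dose or about day 4 against day 8. Within the 8 genes, POU5F1 over the 18 group means had r of 0.87 with ZFP42, 0.67 with PRDM14, 0.51 with DPPA4 and 0.42 with L1TD1, and of -0.51 with NANOG, -0.50 with DPPA2 and -0.32 with UTF1, which stood at or below 1.32 TPM in every library of these groups.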

How the data were processed

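Values are TPM per gene in 1 table deposited by the authors, with 58219 genes and 38 libraries. The submitters' processing notes name Salmon 0.8.2, CASAVA 1.7 and hg38 without settings. Per the labels, libraries were run on 1 of 2 sequencer models without saying which, so a difference between models could not be examined. TPM holds no depth, so no counting error is given.

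The 28221 genes that reached 1 TPM in 2 or more libraries were fitted on log2(TPM + 1) with limma 3.58.1 (R 4.3.3; 19 group means, eBayes with trend, 19 residual degrees of freedom). A gene was called at an adjusted p under 0.05 within a contrast and a log2 change of at least 1, or a slope of at least 0.25 per µM. The fits were tested on simulated data. The log2(TPM + 1) scale understates changes of low genes. Positions are from GENCODE 29, promoters from RefSeq.

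The 8 genes and all lists were chosen with earlier results of these data known. Named were the 8 genes, for each list the 3 largest called changes and the most abundant gene not called in the 2 main contrasts, and the 5 most similar patterns, of which some are not reported here. TFAP2C stood in 2 lists. Alternatives were another pseudocount, no filter, other scalings, protein-coding genes alone, a replicate block, other dose ranges and leaving out each library. The dose steps between CT1.0, CT2.0 and CT4.0, the CT4.0 effect between days and a filter on day 4 and day 8 libraries alone were added after seeing the data.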

Additional observations from a re-analysis of the deposited data

Results flagged for a closer look

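POU5F1 was flagged because its dependence on the CT dose differed between the days by a test of the difference. Its slope over the 7 doses was 0.10 ± 0.06 log2 units per µM on day 8 and -0.21 ± 0.06 on day 4, a difference of 0.32 ± 0.09 (limma adjusted p = 0.00588). The difference was below the size for a call without replicate 1 of D8 CT4.0 (0.24) and over 0.0 to 2.0 µM (0.08). On day 8 the untreated level of POU5F1 was 0.701 TPM, so a fall as steep as the day 4 slope had no room on this scale. This difference is therefore not read as a result.

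PRDM14 was flagged for the same reason, with slopes of 0.01 ± 0.04 on day 8 and -0.43 ± 0.04 on day 4, a difference of 0.44 ± 0.06 (limma adjusted p = 1.0e-05). Its change at CT4.0 against untreated cells was -0.09 ± 0.23 on day 8 and -1.61 ± 0.23 on day 4, a difference of 1.53 ± 0.32 (limma adjusted p = 0.00168). On day 8 its untreated level was 0.380 TPM, so a fall of the size seen on day 4 had no room on this scale. Neither difference of PRDM14 is therefore read as a result.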

How the results depend on the processing

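Each group has 2 libraries and TPM hides depth, so values under 1 TPM carry an unknown counting error. Of 304 values (8 genes in 38 contrasts), 286 kept their call with a pseudocount of 0.1 (4 lost, 14 gained), 303 with no filter (1 lost, L1TD1 at D4 CT2.0 against CT1.0 at adjusted p = 0.0616), 296 with scaling by trimmed mean of M values (2 lost, 6 gained), and 295 without ribosomal protein and mitochondrial genes in the total (1 lost, DPPA4 at D8 CT3.0 at -0.87, and 8 gained). All 304 kept it when the fit held protein-coding genes alone. Leaving out 1 library changed 45 of 1680 values (28 lost, 17 gained), and 119 uncalled values changed sign. The step of L1TD1 from CT1.0 to CT2.0 on day 4 (-1.19 ± 0.34) lost its call without any 1 of its 4 libraries.

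The genes with a CT slope on day 8 numbered 1, and 2 with a pseudocount of 0.1 and 2 over 0.0 to 2.0 µM. On log2(dose + 0.4) they numbered 3, but there no size was required, so that count is not like the others. By adjusted p alone, both DPPA4 and L1TD1 passed on day 8 in the main fit. Over 0.0 to 2.0 µM the slopes of L1TD1 reversed, to -1.08 on day 4 and -0.69 on day 8. Genes called at CT4.0 on day 4 numbered 1, and 2 with scaling by trimmed mean of M values or without ribosomal protein and mitochondrial genes. On day 8 they numbered 2, and 1 with the trimmed mean scaling. The remaining DPPA4 on day 4 was 31.4% of the stem cell level, and 28.9% with trimmed mean scaling. For L1TD1 it was 6.09%, and 5.60% with that scaling, 7.69% against stem cell replicate 1 alone and 5.05% against replicate 2 alone. The causes were not tested.

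With each library left out in turn, the genes lower on day 4 than in stem cells stayed at 8 to 8 in untreated cells and at CT4.0, and those lower on day 8 than on day 4 at 3 to 3. Genes called at CT4.0 were 1 to 2 on day 4 and 2 to 3 on day 8, and with RA on day 4 0 to 1. Slopes were called for 2 to 3 genes on day 4 and 1 to 2 on day 8, and 1 to 2 slopes differed between days. The F test passed for 5 to 5 genes on day 4 and 2 to 3 on day 8. The remainders were 0.835% to 1.32% for POU5F1, 30.7% to 32.1% for DPPA4 and 5.82% to 6.36% for L1TD1.

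Replicate numbers did not pair the libraries: deviations of same-numbered libraries from their group means correlated at -0.04 to 0.04 over 171 pairs of groups. A replicate block changed no call among the 304 values, and POU5F1 at D4 CT1.0 stayed at 1.13. The largest shift of the median of all genes under another scaling was 0.28, at D8 CT3.0.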
